A study of Rattus norvegicus with 12 samples.

Results

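The digestive hydrolases of the intestinal brush border were followed in rat jejunal mucosa, which lines the stretch of small bowel between duodenum and ileum and was taken as a scrape holding all its cell types. The set was named as 9 genes: the disaccharidases Lct and Treh, the peptidases Anpep, Dpp4, Enpep, Mep1a, Mep1b and Ggt1, and the alkaline phosphatase Alpi. Its members are all probe sets of the Affymetrix rat arrays 230A and 230B whose only annotated gene symbol is one of these names. This gave 8 genes of 13810 with a symbol of their own, measured by 10 of the 31142 probe sets on both array types, all 10 on 230A and 0 on 230B. Lct, lactase, had no probe set assigned to it alone, so its signal is not analysed and it appears only in the promoter counts. The low Fe group had 3 samples and the high Fe group had 3 samples, each run on 1 array of either type. Per the labels, all were at week 12, and iron deficiency and anemia are the keywords of the 230A samples. Strain, sex, diet and what the weeks are counted from are not given in the sources used here. The titles call each sample a numbered group, and no label says whether that is 1 animal or a pool or ties the replicates to separate animals, so the p-values reflect the variation among these samples alone, and that variation may be technical. Values are linear signals in arbitrary units, and 3 arrays a group limit the precision of each of them.

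Brush border hydrolases are anchored in the microvillus membrane of absorptive enterocytes, where they finish the digestion that pancreatic enzymes begin in the lumen. Disaccharidases release monosaccharides, peptidases cut oligopeptides into amino acids and short peptides, and transporters beside them carry the products into the cell. Their genes are switched on as enterocytes leave the crypt and mature on the villus, and their activities are used as markers of that maturation. The tissue label was in accord with enterocyte genes: all 14 of the other villus enterocyte genes listed on 230A, such as Fabp1, Apoa1 and Cdh17, were bright enough to be tested. Their summed signal ran from 133215 to 164630 in low Fe and from 127711 to 200204 in high Fe.

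Hydrolase transcripts did not differ detectably between low Fe and high Fe mucosa. None of the 9 tested member probe sets passed an adjusted p of 0.05 in limma (0 past, against 0.0945% of all 9519 tested probe sets on 230A), and their adjusted p-values ran from 0.76 to 0.981. At an unadjusted p under 0.05 there were also 0, against 6.72% of all tested probe sets. In 0 of the 9 did the groups fail to overlap, which was the case for 11.7% of all tested probe sets. The tenth probe set, a dim one for Enpep, lay under the filter on low signals and was not tested.

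The differences were small as well as unsupported. For the 8 genes, each taken at its brightest tested probe set, the log2 difference, low Fe minus high Fe, ran from -0.33 to -0.02 with a median of -0.09, beside a median of 0.00 over all 7032 tested genes. All 8 lay below 0. Of all 7032 tested genes 3545 did, as did 53.2% of all tested probe sets. Signs that follow 1 or 2 shared arrays are not 8 separate observations. The 95% interval of the difference lay within 1 log2 unit of 0, that is within a 2-fold change either way, for 9 of the 9 tested members, against 91.2% of all tested probe sets. This count was added after the data were seen. The widest bounds were a fold, low Fe over high Fe, of 0.621 for Treh and of 1.42 for a second Dpp4 probe set. These intervals assume the scaling of the arrays by the authors. With the hybridization controls as the basis of scaling the median of all tested probe sets was 0.34, all 9 members lay above 0, and the count was 7.

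**Figure D1:**
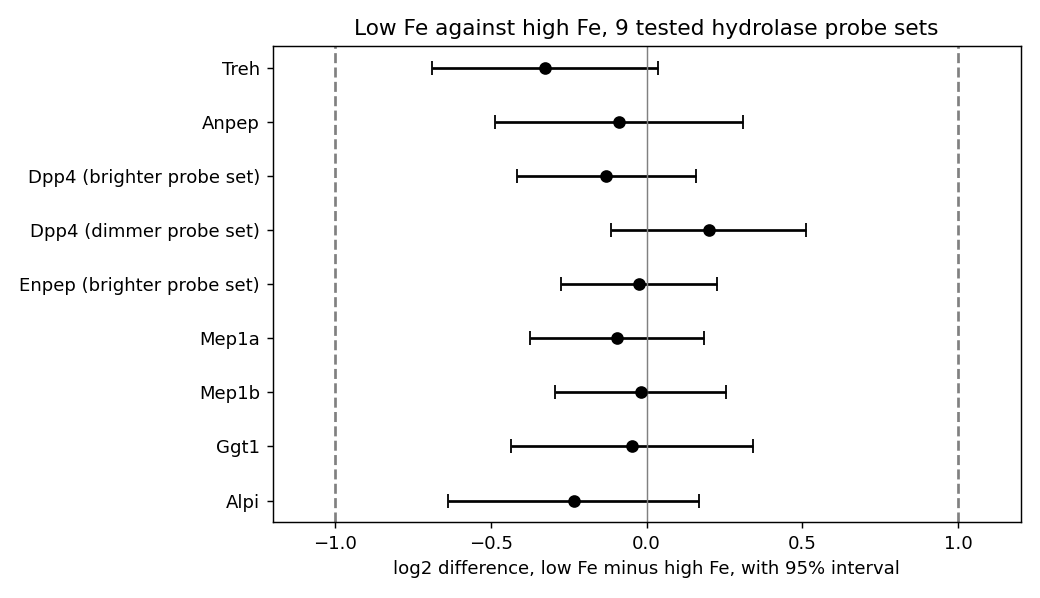
Log2 difference, low Fe minus high Fe, with its 95% interval from limma, for the 9 tested probe sets, 1 per row; dashed lines mark 1 log2 unit either side of 0. Every interval includes 0 and lies between the dashed lines, with Treh farthest to the left at -0.33 and the dimmer Dpp4 probe set alone to the right of 0 at 0.20.

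Treh, trehalase, which splits the fungal and insect sugar trehalose into glucose, had the largest difference of the 9. Its signals were 2410, 2155 and 2866 in low Fe replicates 1 to 3, against 3389, 2574 and 3374 in high Fe replicates 1 to 3. High Fe replicate 2 lay below low Fe replicate 3, so the groups overlapped, while high Fe replicates 1 and 3 stood above every low Fe array. The means were 2477 ± 360 in low Fe and 3112 ± 466 in high Fe (SD, n = 3 each). The log2 difference of -0.33 ± 0.16 (SE) corresponds to a fold of 0.798 with an interval from 0.621 to 1.02 (limma adjusted p = 0.76). Without 1 array the difference ran from -0.46 to -0.23. High Fe replicate 2, where 6 of the 9 tested probe sets peaked, was the lowest of the high Fe arrays for Treh, as it was for the dimmer Dpp4 probe set.

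Among the exopeptidases, Anpep, aminopeptidase N, removes amino acids from the amino end of peptides. It had signals of 16723, 14943 and 13346 in low Fe and of 12652, 20384 and 15554 in high Fe. The lowest and the highest array both belonged to high Fe, a spread of 0.69 log2 units within that group against a difference between the groups of -0.09 ± 0.17 (limma adjusted p = 0.928). Without high Fe replicate 2 the difference was 0.09, on the other side of 0.

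Enpep, glutamyl aminopeptidase, which takes acidic residues from the amino end, gave 5679, 5436 and 5333 in low Fe and 5146, 6054 and 5557 in high Fe at its brighter probe set. It varied least of all members, with a fold of 1.18 between the highest and the lowest of the 6 arrays. Its log2 difference was -0.02 ± 0.11 with an interval from -0.28 to 0.23 (limma adjusted p = 0.978). The dim Enpep probe set had signals of 96.8, 79.7 and 93.7 in low Fe and of 109, 154.7 and 106.6 in high Fe, all low Fe arrays below all high Fe arrays. That pattern was found in 7.31% of the probe sets left out as dim. Its mean lay just under the filter boundary of 109, and with no filter its log2 difference of -0.38 had a limma adjusted p of 0.823.

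Dpp4, dipeptidyl peptidase 4, which cuts dipeptides off behind proline or alanine and inactivates incretin hormones, had a pair of tested probe sets that pointed opposite ways. The brighter gave 5082, 5610 and 5656 in low Fe and 5420, 6870 and 5669 in high Fe, a log2 difference of -0.13 ± 0.13 (limma adjusted p = 0.862). The dimmer gave 1607, 2078 and 1853 in low Fe and 1615, 1474 and 1712 in high Fe, a log2 difference of 0.20 ± 0.14 (limma adjusted p = 0.805). High Fe replicate 2 was the highest of the 6 arrays for the brighter probe set and the lowest for the dimmer one, so the probe sets of this gene disagreed about that sample as well as about the groups. Neither difference exceeded its error enough to pass.

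Mep1a and Mep1b encode the alpha and beta subunits of meprin, a zinc endopeptidase that cuts within proteins and peptides. Mep1a gave 10407, 9035 and 9242 in low Fe and 9327, 11642 and 9738 in high Fe, and Mep1b gave 9279, 8571 and 7849 in low Fe and 8287, 9726 and 8055 in high Fe. Both peaked on high Fe replicate 2, with low Fe replicate 1 next. The log2 differences were -0.09 ± 0.12 for Mep1a (limma adjusted p = 0.891) and -0.02 ± 0.12 for Mep1b (limma adjusted p = 0.981), and Mep1b was the nearest to 0 of the 8 genes. Their intervals ran from -0.37 to 0.19 and from -0.29 to 0.26.

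Ggt1, gamma-glutamyltransferase, opens the gamma-glutamyl bond of glutathione outside the cell. Its signals were 4199, 2732 and 4076 in low Fe and 3722, 3870 and 3584 in high Fe. Here 1 low Fe array, replicate 2, stood below the other 5, and the spread within low Fe was 0.62 log2 units against 0.11 within high Fe. The log2 difference was -0.05 ± 0.17 (limma adjusted p = 0.969), and it was 0.15 without low Fe replicate 2.

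Alpi, intestinal alkaline phosphatase, removes phosphate groups from dietary and bacterial molecules, lipopolysaccharide among them. It gave 12792, 10899 and 10207 in low Fe and 10564, 17044 and 12875 in high Fe. High Fe replicate 2 stood well above the other 5 arrays, while high Fe replicate 1 lay within the low Fe range. The means were 11299 ± 1340 in low Fe and 13494 ± 3280 in high Fe (SD, n = 3 each), a log2 difference of -0.23 ± 0.18 (limma adjusted p = 0.822). Without high Fe replicate 2 it was -0.05, closer to 0 than with that array.

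**Figure D2:**
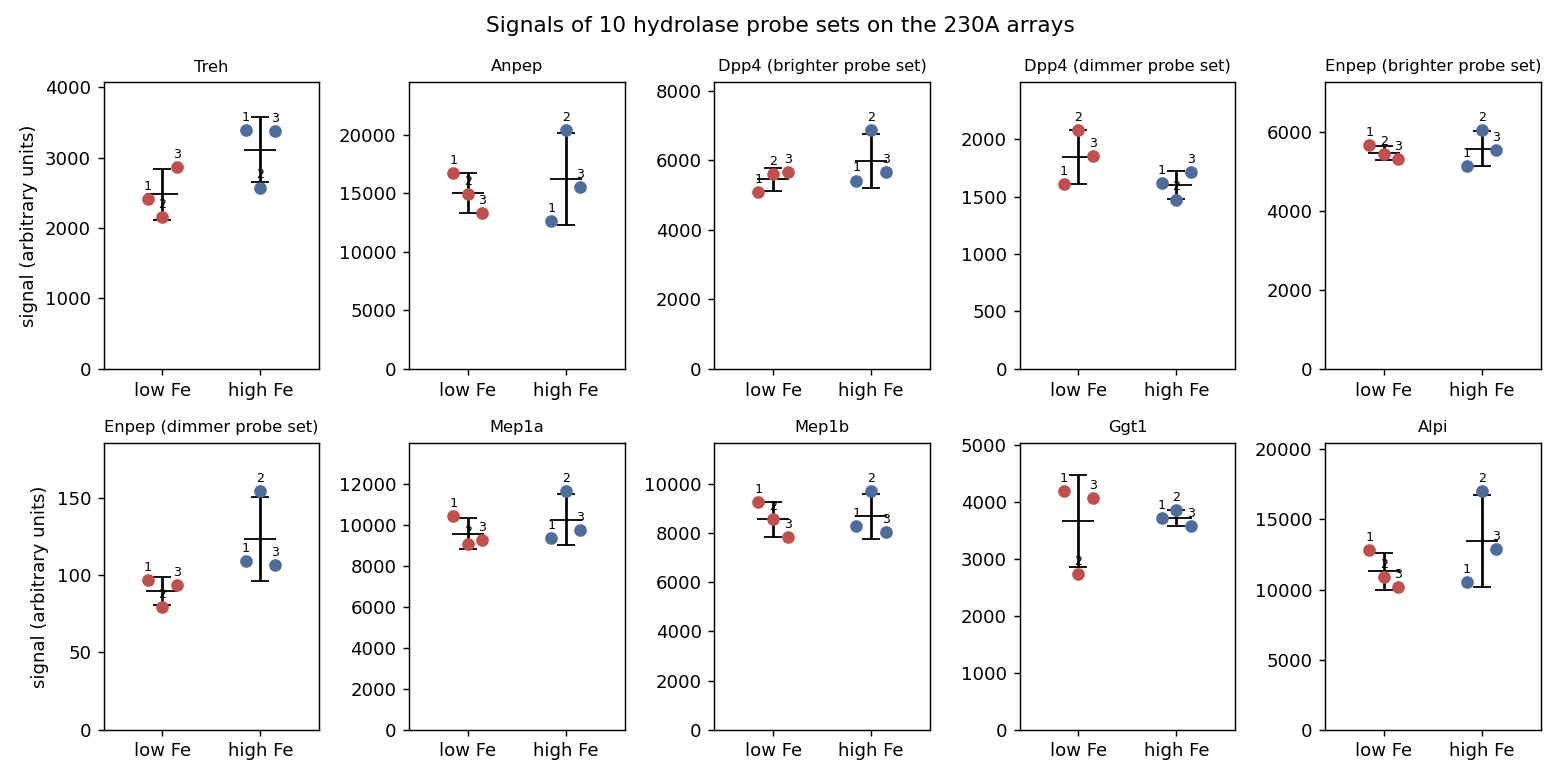
Signal in arbitrary units of each of the 10 member probe sets on the 6 arrays of type 230A, low Fe left and high Fe right in each panel; points carry the replicate number, and bars show the mean ± SD of 3 arrays. The groups overlap in every panel but that of the dim Enpep probe set, and replicate 2 of high Fe is the top point for Anpep, Mep1a, Mep1b, Alpi and the brighter Dpp4 and Enpep probe sets.

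Most hydrolases were highest on the same array. Of the 9 tested probe sets, 6 had their maximum on high Fe replicate 2, as had 22.4% of all tested probe sets on 230A, while Treh, Ggt1 and the dimmer Dpp4 probe set did not. The peak was not particular to the hydrolases, since 11 of 14 other villus enterocyte genes and 4 of 5 goblet cell markers on 230A also had it. On 230B the villus genes Vil1 and Mttp were also highest on high Fe replicate 2. The goblet cell markers tested there, Agr2, Clca1, Spink4 and Spdef, were each highest on a low Fe array. On 230A the peak was less frequent in other lists: 3 of 9 other brush border hydrolases and 5 of 14 intracellular peptidases had it. The crypt and cycling cell (0 of 7), enteroendocrine (0 of 7), smooth muscle (0 of 5) and macrophage (0 of 5) markers did not. Brightness differed as well. The 6 hydrolase probe sets with the peak had low Fe means of 5450 or more, while Treh, Ggt1 and the dimmer Dpp4 probe set had 3669 or less. The brightest marker in the lists at 0 was Mylk, with a low Fe mean of 3711. Signal level was no strict divide, since Ace, at 9772, lacked the peak and Lap3, at 1749, had it. The part of brightness in the peak was not tested. Averaged over the 8 genes, the log2 signal lay 0.21 above its mean over the arrays on high Fe replicate 2. It was 0.03 above on low Fe replicate 1, and 0.03 above on high Fe replicate 3. It was 0.14, 0.07 and 0.06 below on low Fe replicate 2, low Fe replicate 3 and high Fe replicate 1. The largest single deviations on high Fe replicate 2 were those of Alpi at 0.48 and Anpep at 0.40. Without that array the median difference of the 8 genes was -0.01, against -0.09 with it.

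Signs of RNA and labelling quality moved with the same arrays. The 5'/3' signal ratio of the GAPDH control probe sets was 0.876 on low Fe replicate 1 and 0.922 and 0.887 on high Fe replicates 2 and 3, the same 3 arrays on which the hydrolases averaged above their mean. On low Fe replicates 2 and 3 and high Fe replicate 1 it was 0.807, 0.794 and 0.811. The actin ratio of low Fe replicate 3 was 0.0539, while the remaining 230A arrays had 0.591 to 0.836. High Fe replicate 2 also had the brightest hybridization controls, with a mean log2 signal of 10.26, where the rest of the 230A arrays had 9.23 to 9.52. The part of these measures in the hydrolase values was not tested.

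**Figure D3:**
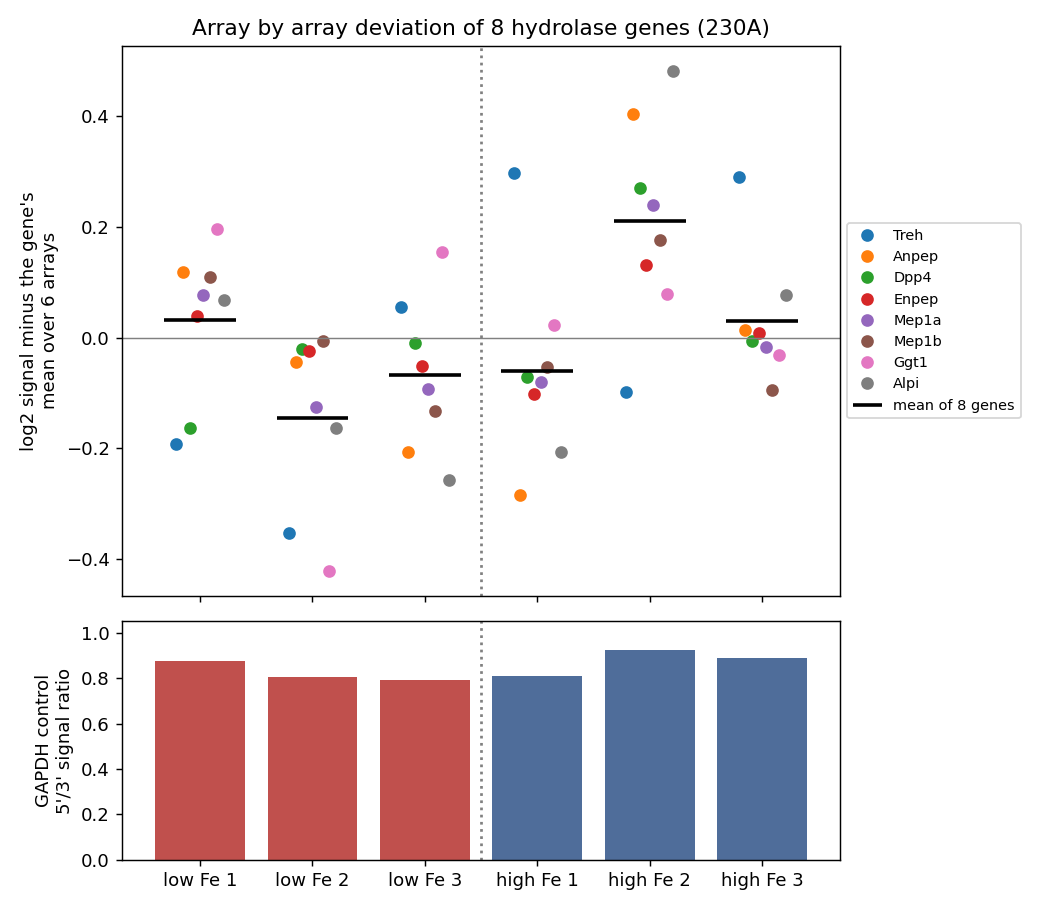
Upper panel, log2 signal of each of the 8 hydrolase genes minus its own mean over the 6 arrays of type 230A, with a black bar for the mean of the genes; lower panel, the 5'/3' signal ratio of the GAPDH control probe sets on the same arrays (low Fe in red, high Fe in blue). The black bar is highest on high Fe replicate 2 at 0.21, and the 3 arrays with the bar above 0 are those with a ratio of 0.876 or more.

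The promoters of 5 of the 6 genes that peaked together on high Fe replicate 2, all but Mep1b, are shown, with or without matches. The letters are those of factors known to drive enterocyte genes, HNF1 and CDX. In mammals HNF1 and CDX2 act on several brush border hydrolase genes. Of the 8 measured genes 7 were in the RefSeq promoter table of GRCr8, which lists no entry for Treh. The 120 bases before the transcript start follow, 5′ to 3′ on the gene's strand, with matches in capitals. The letters searched were GTTAAT for HNF1 with its reverse complement ATTAAC, and for CDX the core TTTAT with its complement ATAAA and the core TTTAC with its complement GTAAA.
Anpep, chr1:143195102-143195221, minus strand: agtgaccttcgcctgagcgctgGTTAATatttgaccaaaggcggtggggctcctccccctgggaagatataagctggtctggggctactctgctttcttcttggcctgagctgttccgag
Enpep, chr2:220526219-220526338, minus strand: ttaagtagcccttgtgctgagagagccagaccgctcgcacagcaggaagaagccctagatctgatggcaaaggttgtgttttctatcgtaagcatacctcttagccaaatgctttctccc
Dpp4, chr3:67452423-67452542, minus strand: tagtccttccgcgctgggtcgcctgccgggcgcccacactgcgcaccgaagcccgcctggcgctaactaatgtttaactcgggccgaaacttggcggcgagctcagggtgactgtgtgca
Mep1a, chr9:24971781-24971900, plus strand: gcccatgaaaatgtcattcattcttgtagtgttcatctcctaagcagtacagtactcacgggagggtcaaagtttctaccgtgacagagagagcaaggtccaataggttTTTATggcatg
Alpi, chr9:95224781-95224900, minus strand: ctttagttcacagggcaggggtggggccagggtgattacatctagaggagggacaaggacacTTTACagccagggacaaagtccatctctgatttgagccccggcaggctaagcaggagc
In the 250 bases before the start, on both strands, the HNF1 letters were found in Anpep, 98 bases before the start, and in Mep1b, 2 of the 8 listed members including Lct, against 6.45% of all 33469 promoters. The CDX letters were found in 5 of the 8, Enpep, Mep1a, Mep1b, Alpi and Lct, against 53.7% of all promoters. In Enpep they lie 204 and 135 bases before the start, outside the stretch shown, and Dpp4 had none of the letters searched. Mep1b, not shown, had both kinds within 120 bases: ATTAAC for HNF1 72 bases and TTTAC for CDX 37 bases before the start. GATA letters, AGATAA or TTATCT, were found in Lct alone, 1 of the 8 against 10.3% of all promoters, where the TTATCT match overlaps a CDX match. A match is a description of the letters and not a bound site.

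Other hydrolases of the brush border were described alongside. Of 18 other brush border hydrolases listed, 9 were tested on 230A and 0 rose or fell, with a median log2 difference of -0.01 and a range from -0.18 for Enpp3, an ectonucleotidase, to 0.33 for Plb1, a phospholipase. Xpnpep2, an aminopeptidase that acts before proline, gave 0.13 ± 0.11 (limma adjusted p = 0.851). On 230B, where 0 of 9163 tested probe sets passed (0.0%) and 10.3% had an unadjusted p under 0.05, 2 were tested. Cpm, carboxypeptidase M, had 5565, 5172 and 5608 in low Fe and 3442, 2705 and 2183 in high Fe without overlap, as had 17.5% of tested probe sets there. Its log2 difference was 0.99 ± 0.19 (limma adjusted p = 0.356), and a dimmer Cpm probe set gave 0.00 ± 0.19.

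Intracellular peptidases, which complete the breakdown of absorbed small peptides, had 14 tested genes on 230A, of which 0 rose or fell (median -0.09). Npepps, the puromycin-sensitive aminopeptidase, had the smallest unadjusted p of these, with a log2 difference of 0.33 ± 0.13 (limma adjusted p = 0.714). Lap3, leucine aminopeptidase, gave -0.42 ± 0.20, Tpp1, a lysosomal tripeptidyl peptidase, -0.26 ± 0.12, and Cndp2, a cytosolic dipeptidase, 0.31 ± 0.16. All 3 had limma adjusted p-values from 0.752 to 0.767. Transcription factors known to act on enterocyte genes had 11 tested genes on 230A, again with 0 past the threshold and a median of 0.02. Cdx2 gave 2749, 2851 and 2822 in low Fe and 2649, 2122 and 2508 in high Fe, a log2 difference of 0.22 ± 0.12 (limma adjusted p = 0.78). Klf5 gave -0.96 ± 0.58 on 230A but 0.21 ± 0.17 on 230B, and Hnf4a gave -0.75 ± 0.69 on 230A but 0.03 ± 0.13 on 230B, with limma adjusted p-values of 0.644 or more. Dimmer Klf5 probe sets on 230B gave -0.39 and -0.29, so the probe sets of that gene disagreed in sign within 230B. A dimmer Hnf4a probe set on 230A gave -0.53 ± 0.605 (limma adjusted p = 0.874). The array that was highest for 6 of the hydrolase probe sets, high Fe replicate 2, was the lowest of the 6 for Cdx2.

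Other villus enterocyte genes also lay mostly below 0: 0 of 14 tested on 230A passed, 12 lay below 0, and the median was -0.14. Cdh17, an intestinal cadherin, gave -0.23 ± 0.18, Slc2a2, a basolateral sugar transporter, -0.21 ± 0.15, and Apob, the chylomicron protein, -0.16 ± 0.14. A dimmer Apob probe set on 230A gave -0.68 ± 0.29 (limma adjusted p = 0.734). On 230B Vil1, villin, gave -0.16 ± 0.13. Among markers of other cells, all 5 goblet cell genes tested on 230A lay below 0 (median -0.08), as did 5 of 7 lymphocyte genes (median -0.04) and 2 of 3 red blood cell genes (median -0.21). The goblet cell genes tested on 230B, 4 in number, all lay above 0 (median 0.17). Clca1, tested on both types, gave -0.04 on 230A and 0.48 on 230B. Enteroendocrine markers on 230A had 4 of 7 above 0 (median 0.00), macrophage markers there 4 of 5 (median 0.08) and Paneth cell markers 2 of 3 (median 0.43). All 5 tested smooth muscle markers on 230A were above 0 (median 0.56, 0 past the threshold), with a summed signal from 4343 to 5636 in low Fe and from 3329 to 4021 in high Fe. Without Mylk, the brightest of them (a sum added after the data were seen), the sums overlapped, at 953 to 1622 in low Fe and 816 to 1095 in high Fe. On 230B 3 smooth muscle markers were tested, with 2 above 0 and a median of 0.09. Their sums overlapped, at 1026 to 1421 in low Fe and 884 to 1446 in high Fe. Mylk, tested on both types, gave 0.43 ± 0.13 on 230A and 0.09 ± 0.42 on 230B. Crypt and cycling cell markers had 6 of 7 above 0 (median 0.22, 0 past), with sums from 2775 to 4125 in low Fe and from 1819 to 2140 in high Fe. Without Pcna, the brightest, these also overlapped, at 869 to 1439 in low Fe and 751 to 1095 in high Fe. The part of these other cells in the hydrolase signals was not tested. In bulk mucosa fewer cells of a type and less RNA per cell cannot be told apart.

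**Figure D4:**
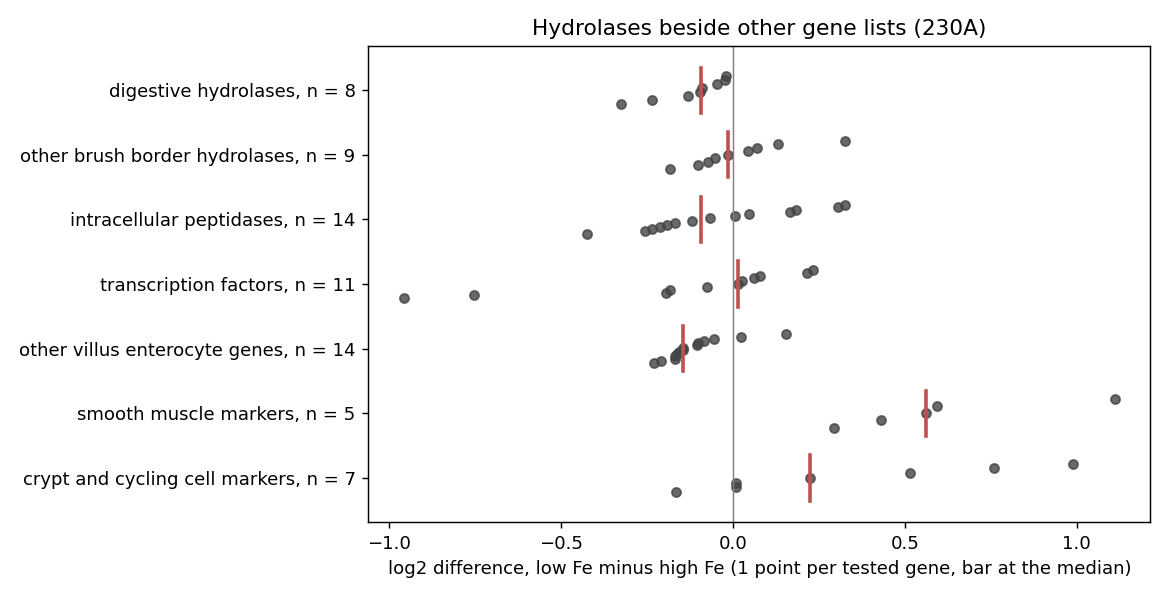
Log2 difference, low Fe minus high Fe, on 230A for each tested gene of the hydrolase set and of 6 other lists, 1 point per gene, with a red bar at each list's median. The hydrolases lie between -0.33 and -0.02, near the other villus enterocyte genes (median -0.14), while the smooth muscle markers are all above 0 (median 0.56).

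The genes most like the hydrolases in pattern were ranked by Pearson r over the 6 arrays between their log2 signal and the mean profile of the 8 genes. Of 7024 genes ranked, the first 5 were Dnase1, a secreted endonuclease, at 0.999, Mplkip at 0.998, Ensa, an inhibitor of protein phosphatase 2A, at 0.994, Sstr1, a somatostatin receptor, at 0.991 and Dnpep, aspartyl aminopeptidase, at 0.989. Dnase1 gave 11089, 8787 and 9893 in low Fe and 9943, 14101 and 10988 in high Fe, again with its maximum on high Fe replicate 2. Without that array the 5 values of r ran from 0.966 to 0.998. As the extremes of a ranking over all genes on 6 arrays, these values describe the arrays and carry no test.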

How the data were processed

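The values as deposited are intensities on a linear scale, 1 for each probe set on each array and none below 0. The sources used here name no software for them. To judge by the values, the authors had scaled each array: the mean without 2% of probe sets at either end was 500.1 on all 230A and 500.2 on all 230B arrays, which hides any shift common to most genes. The arrays of 230A had median signals of 154.5 to 176.2, those of 230B of 259.5 to 302.8, and none held the values of another. Types were analysed apart.

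Samples were grouped by title, and title numbers are called replicates. Gene names come from the platform annotation: after 57 controls were left out, 12783 of 15866 probe sets on 230A had 1 symbol, 312 several and 2771 none, and 7564, 100 and 7612 of 15276 on 230B. Names of 12748 and 7524 matched the RefSeq table of GRCr8 by Entrez identifier. Sequences come from its promoter table.

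Signals were transformed as log2(signal + 16), which understates changes of dim genes, and probe sets in the dimmest 40% by mean signal were dropped (boundary 109 on 230A, 200 on 230B). The contrast low Fe minus high Fe was tested two-sided in limma 3.58.1 (R 4.3.3, lmFit and eBayes with trend), with Benjamini-Hochberg adjustment over the 9519 or 9163 remaining probe sets. The brightest tested probe set stands for a gene with several.

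All member probe sets are named, with up to 4 genes of each epithelial list by smallest unadjusted p, and the 5 genes most alike in pattern. The named genes were Cpm, Xpnpep2, Enpp3 and Plb1, then Npepps, Lap3, Tpp1 and Cndp2, then Cdx2, Klf5 (both types) and Hnf4a, then Slc2a2, Cdh17, Vil1 and Apob. The members and lists were chosen with earlier results of these data known. Same-numbered arrays of the groups had deviations from the group means that correlated at -0.37, -0.154 and -0.265 on 230A, so no block was used. The fit was tested on simulated data, 3 draws of 15866 probe sets of which 200 were changed, and recovered 95.9% to 99.1% of 2-fold changes on 230A. The simulated noise was independent between probe sets, followed a smoothed spread and held no shifts shared within an array. This share is therefore a check of the code and not the power in the real arrays. In these, Pcna at a log2 difference of 0.99 ± 0.17 did not pass (limma adjusted p = 0.143).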

Additional observations from a re-analysis of the deposited data

How the results depend on the processing

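No member probe set passed the threshold under any of 17 alternatives, with the smallest adjusted p of a member between 0.423 and 0.999. Among 169 member values under these alternatives, 146 kept their direction and 23 reversed. For the named genes of the other lists, 264 of 272 kept it and 8 reversed, and 0 passed. Scaling to the hybridization controls moved the median of all tested probe sets to 0.34 and the median of the 8 hydrolase genes to 0.28. It reversed Treh (0.0462), Anpep (0.29), the brighter Dpp4 (0.25) and Enpep (0.35) probe sets, Mep1a (0.28), Mep1b (0.36), Ggt1 (0.33), Alpi (0.14), Enpp3 (0.19), Tpp1 (0.11), Slc2a2 (0.16), Cdh17 (0.14), Apob (0.22) and Vil1 (0.0332). Relative to that median, the 9 tested members ran from -0.30 to 0.23. Under it 33 probe sets passed on 230A and 5 on 230B, against 9 and 0. Setting a common median moved all tested probe sets alike, their median to 0.0474 from -0.0154. It reversed the brighter Enpep probe set (0.0388), Ggt1 (0.0156) and Mep1b (0.0439) only through that shift, since relative to all probe sets they stayed at -0.0087, -0.0318 and -0.0035. Quantile normalization reversed Anpep (0.0619) and Mep1b (0.0088). The GAPDH ratio sets as a block, added after the data were seen, reversed Anpep (0.0339), the brighter Enpep probe set (0.0174), Ggt1 (0.0080) and Mep1b (0.0265). Since these sets also part the arrays on which the hydrolases averaged above and below their mean, this says nothing about stability. With the replicate number as a block, 4 probe sets passed on 230A, and 0 of the members. The titles give only a number, the same-numbered arrays did not deviate together, and the block changed no call of a member.

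Without 1 array, the median of the 8 genes ran from -0.18 to -0.0088, Anpep from -0.25 to 0.0908, the brighter Enpep probe set from -0.0814 to 0.0354, Mep1a from -0.16 to 0.0019, Mep1b from -0.0781 to 0.0648, Ggt1 from -0.16 to 0.15, Enpp3 from -0.30 to 0.0222 and Plb1 from -0.0526 to 0.65. Over all of 230A, 5 to 21 probe sets passed without 1 array, with the most (21) when low Fe replicate 1 was left out and the fewest (5) when low Fe replicate 2 was. The causes of these shifts were not tested. Member counts on 230B do not exist, since no member lies on that type. Precision is set by 3 arrays a group, and the dim Enpep probe set, near the filter boundary, supports no statement about that gene.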
